A study of Rattus norvegicus with 12 samples.

Results

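The microRNAs miR-195, miR-195* and miR-497 come from a pair of neighbouring precursors, mir-195 and mir-497. These 3 (listed as rno-miR-195, rno-miR-195* and rno-miR-497) were taken by name from a table of 30 miRNAs that the authors selected on a lower level after ethanol feeding. The header of the table gives a cut-off of 2-fold, so the miRNAs were chosen by the same ethanol-fed and pair-fed values that are described here. The difference between the diets is for this reason given as a description, with no test. No other measurement of these miRNAs was analysed here.

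Small RNA was sequenced from cultured Kupffer cells (liver-resident macrophages) of adult male Wistar rats. Ethanol-fed rats had a Lieber-DeCarli liquid diet with ethanol as 35% of calories for 4 weeks, and pair-fed rats had the same diet with maltose dextrin in its place. Cells were cultured for 18 h and then for 5 h without HA35, a fragment of hyaluronic acid, which makes them "basal". Of the 12 libraries of the series, 3 ethanol-fed basal and 3 pair-fed basal libraries carry these values, numbered in the labels as days 1 to 3. The labels do not say how many rats make up a day, or if libraries of the same day form a pair. The spread given here is therefore between libraries, and differences by day assume such a pairing.

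miRNAs guide the silencing complex to messenger RNAs, mainly through the seed near their 5′ end, and usually lower the output of the messages they bind. A precursor hairpin can give a product from either arm. One arm is often the more abundant guide, and the other was historically marked with a star. The miR-15/16 family, to which miR-195 and miR-497 belong, is known for slowing the cell cycle by acting on messages for cyclins, cyclin-dependent kinases and other growth regulators. In mammals mir-497 and mir-195 lie side by side and are thought to come from a shared primary transcript.

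The mature sequences, shown because the guides share a seed and the star strand does not, were taken from RefSeq (build GRCr8), where all 3 miRNAs had a match. The deposited table names no arm. By the usual naming miR-195 and miR-497 were read as the 5p products and miR-195* as the 3p product. Sequences run 5′ to 3′, and the capitals mark the seed, bases 2 to 8.
rno-miR-195-5p (miR-195): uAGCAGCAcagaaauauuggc
rno-miR-497-5p (miR-497): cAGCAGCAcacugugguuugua
rno-miR-195-3p (miR-195*): cCAAUAUUggcugugcugcucca
rno-miR-16-5p: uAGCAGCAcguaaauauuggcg
rno-miR-15b-5p: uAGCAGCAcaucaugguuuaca
rno-miR-322-5p: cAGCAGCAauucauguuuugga
rno-miR-503-5p: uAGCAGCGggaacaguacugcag

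Among the 724 mature rat sequences of that reference, 5 carried the seed AGCAGCA: miR-195, miR-497, miR-16, miR-15b and miR-322. The related miR-503 differs within the seed. Outside the seed the guides diverge. Bases were aligned from the 5′ end without gaps, with the shared seed included in the count. miR-195 was then matched at 12 of 21 bases by miR-497, at 14 of 21 by miR-15b and at 11 of 21 by miR-322. In contrast, miR-16 matched miR-195 at 19 of 21 bases, with the first 9 identical. The sources used here do not say if reads with mismatches were counted, so how reads of miR-195 and miR-16 were kept apart is not known. The seed of miR-195*, CAAUAUU, was found in no other mature sequence of that reference.

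The hairpins, shown because they place the 3 products, lie on the plus strand of chromosome 10 in GRCr8 with 255 bases between them. The mir-497 hairpin is at chr10:55450171-55450239 and the mir-195 hairpin at chr10:55450495-55450581. The authors used the older build rn4, and the deposited table gives no coordinates. Capitals mark the mature products of both arms.
mir-497: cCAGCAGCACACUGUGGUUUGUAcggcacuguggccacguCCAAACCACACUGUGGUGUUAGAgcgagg
mir-195: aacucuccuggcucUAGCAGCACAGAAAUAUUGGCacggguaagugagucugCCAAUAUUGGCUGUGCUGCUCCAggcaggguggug

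Only 3 of the 4 arms were in the table, since the 3p product of mir-497 was not listed. Of the 8 names of the miR-15/16 family and its relatives that were looked for (miR-15a, miR-15b, miR-16, miR-195, miR-322, miR-424, miR-497 and miR-503), miR-195 and miR-497 were the only ones there. The names miR-15a and miR-424 were not among the rat sequences that carried the seed in the reference. The table holds only miRNAs selected as lower, and the values of the other names were not analysed here. None of the 3 miRNAs was in the authors' table of 3 miRNAs that were higher with HA35 after ethanol feeding. With so few miRNAs in that HA35 table, absence from it does not show how miR-195, miR-195* and miR-497 respond to HA35. Their response to HA35 was not tested. No share of the whole ethanol table was computed for presence in the HA35 table.

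The 3 ethanol-fed basal libraries had 2865329 to 4958302 reads, of which 50.4% to 56.9% aligned. The 3 pair-fed basal libraries had 3979946 to 6151744 reads, of which 45.5% to 61.9% aligned. Reads per miRNA were not among the values used here, and counting error is therefore unknown. Values are normalized log2 levels, each relative to the median of its miRNA across these 6 libraries. They compare libraries within a miRNA, and not one miRNA with another. The day 1 libraries stood apart across the table. Ethanol-fed replicate 1 was the lowest of the 6 libraries for 21 of the 30 miRNAs (70%), pair-fed replicate 1 was the highest for 25 (83.3%), and both held for 18 (60%). Both held for each of miR-195, miR-195* and miR-497. The differences between the diets and the counts at 2-fold are therefore given with and without these libraries. Other results include them unless stated.

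The guide miR-195 was at -0.88, -0.58 and 0.02 in ethanol-fed replicates 1, 2 and 3, against 2.43, -0.02 and 0.68 in pair-fed replicates 1, 2 and 3 (normalized log2 values). Pair-fed replicate 1 was far above the other libraries. The groups overlapped by little, as ethanol-fed replicate 3 lay just above pair-fed replicate 2. The mean was -0.48 ± 0.46 (SD, n = 3) in ethanol-fed and 1.03 ± 1.26 (SD, n = 3) in pair-fed libraries. The difference was -1.51 ± 0.77 (standard error) on the log2 scale, or 2.84-fold lower with ethanol feeding. It was negative on each of the 3 days, at -3.30 on day 1, -0.56 on day 2 and -0.66 on day 3.

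The star strand miR-195*, from the other arm of the same hairpin, was at -1.59, 0.03 and -0.19 in ethanol-fed replicates 1, 2 and 3, against 2.55, -0.03 and 1.17 in pair-fed replicates 1, 2 and 3. Ethanol-fed replicate 1 was the lowest library and pair-fed replicate 1 the highest, while both replicates 2 stood next to each other near 0. The groups overlapped. The mean was -0.58 ± 0.88 (SD, n = 3) in ethanol-fed and 1.23 ± 1.29 (SD, n = 3) in pair-fed libraries. The difference of -1.81 ± 0.90 (standard error), or 3.50-fold lower, was the largest of the 3 and the fifth largest of the 30 in the table. By day it was -4.13, 0.07 and -1.36, so that day 2 showed no lower level with ethanol feeding.

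The second guide, miR-497, was at -1.42, 0.01 and -0.01 in ethanol-fed replicates 1, 2 and 3, against 1.95, -0.07 and 0.33 in pair-fed replicates 1, 2 and 3. Its replicates 2 and 3 of both diets thus lay within a narrow band, and only the day 1 libraries were far from it, on opposite sides. The mean was -0.47 ± 0.82 (SD, n = 3) in ethanol-fed and 0.74 ± 1.07 (SD, n = 3) in pair-fed libraries. The difference was -1.21 ± 0.78 (standard error), or 2.31-fold lower. By day it was -3.37, 0.08 and -0.34.

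**Figure D1:**
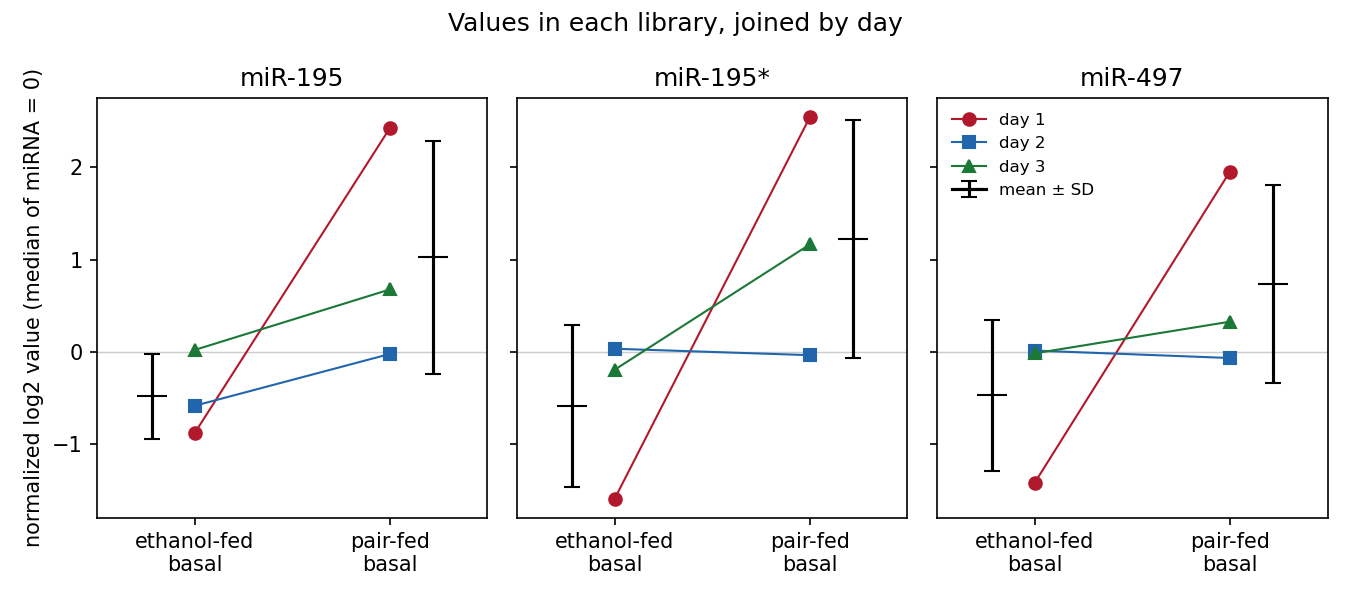
Normalized log2 values of miR-195, miR-195* and miR-497 in ethanol-fed basal (left) and pair-fed basal (right) libraries, with lines joining the libraries of a day and bars giving the mean ± SD of 3 libraries. The day 1 line is the steepest for each miRNA, with differences of -3.30, -4.13 and -3.37, and the day 2 lines of miR-195* and miR-497 are nearly flat.

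Set side by side, the 3 miRNAs were at least 2-fold lower over all days, as were all 30 of the table (100%), which is what the table was selected for. At 3-fold or more the count was 1 of the 3, miR-195*, and 9 of the 30 (30%), and at 4-fold or more 0 of the 3 and 2 of the 30 (6.67%). The groups were fully separated for 0 of the 3 miRNAs, and for 7 of the 30 (23.3%). That count depended on single libraries. Without pair-fed replicate 2 it was 3 of the 3 and 16 of the 30 (53.3%). It was 1 of the 3 without ethanol-fed replicate 2 (miR-195*, with 13 of the 30, 43.3%) and without ethanol-fed replicate 3 (miR-195, with 12 of the 30, 40%). Without ethanol-fed replicate 1, pair-fed replicate 1 or pair-fed replicate 3 it was 0 of the 3, against 33.3%, 26.7% and 36.7% of the 30. Lower values on each of the 3 days were seen for 1 of the 3, miR-195, and for 14 of the 30 (46.7%). On day 1 alone each of the 3 was at least 2-fold lower, as were 26 of the 30 (86.7%). On day 2 the count was 0 of the 3 and 10 of the 30 (33.3%), and on day 3 it was 1 of the 3, miR-195*, and 9 of the 30 (30%).

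The size of the difference rested on day 1. Without pair-fed replicate 1 it was -0.81 for miR-195, -1.15 for miR-195* and -0.60 for miR-497, and only miR-195* was still at least 2-fold lower, as were 10 of the 30 miRNAs (33.3%). Without ethanol-fed replicate 1 the differences were -1.31, -1.30 and -0.74 in the same order. Without both day 1 libraries they were -0.61, -0.64 and -0.13, or 1.52-, 1.56- and 1.10-fold lower, and 0 of the 3 and 6 of the 30 miRNAs (20%) were at least 2-fold lower. The smallest of these, for miR-497, came from a mean of 0.00 in ethanol-fed and 0.13 in pair-fed libraries of days 2 and 3.

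The rest of the table moved in the same libraries. On day 1 the median difference of the other 27 miRNAs was -2.61, and each of the 3 lay below it. On day 2 that median was -0.42, with miR-195 below it and miR-195* and miR-497 above it. On day 3 it was -0.69, with miR-195* below it and miR-195 and miR-497 above it. Ranked from the lowest difference among the 30, the 3 miRNAs took places 8 to 10 on day 1, 13 to 22 on day 2 and 8 to 18 on day 3.

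**Figure D2:**
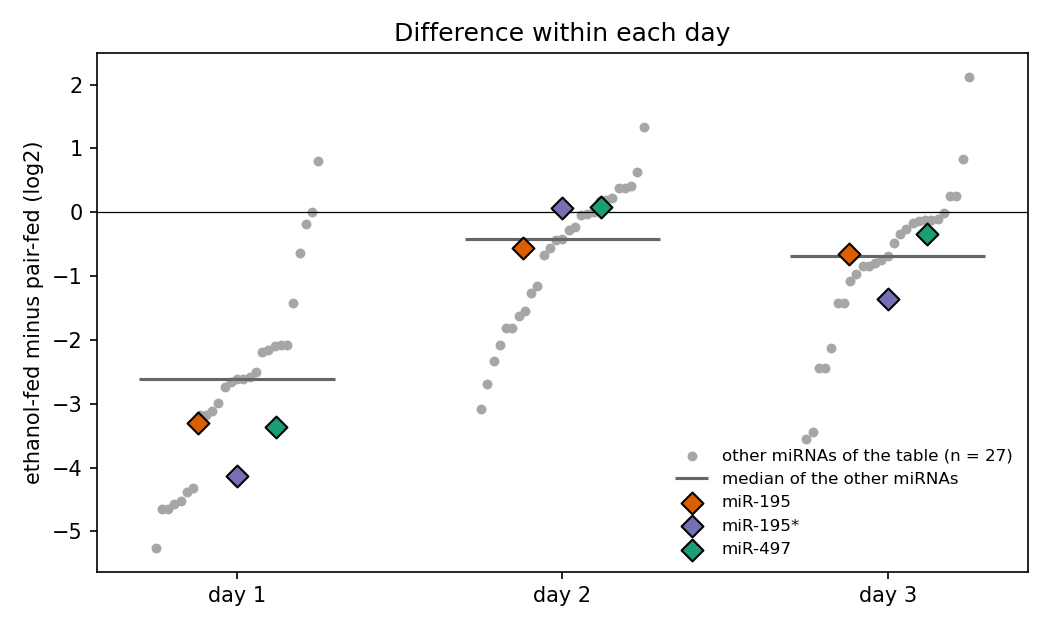
Ethanol-fed minus pair-fed difference of normalized log2 values within each day, for miR-195, miR-195* and miR-497 (coloured diamonds) and the other 27 miRNAs of the table (grey points), with the median of those 27 as a line. The 3 miRNAs lie below the median of -2.61 on day 1 and on either side of the medians of -0.42 on day 2 and -0.69 on day 3.

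When the median of the other 27 miRNAs was subtracted in each library, the difference was -0.44 ± 0.24 for miR-195, -0.74 ± 0.42 for miR-195* and -0.15 ± 0.26 for miR-497 (standard errors). By this measure the difference was smaller than without the step for each of the 3, and for miR-497 it was within its standard error. After this step ethanol-fed replicate 1 was at -0.11 for miR-195, -0.82 for miR-195* and -0.65 for miR-497. Pair-fed replicate 1 was at 0.55 for miR-195, 0.66 for miR-195* and 0.07 for miR-497. The low day 1 value in ethanol-fed cells thus exceeded that of the table for miR-195* and miR-497, while the high day 1 value in pair-fed cells exceeded it for miR-195 and miR-195*. The other 27 miRNAs were selected by the same contrast, so their median is not a neutral baseline.

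In pair-fed replicate 3 miR-195* was at 0.90 relative to the table and miR-195 at 0.41, the highest and second highest of their libraries by this measure, while miR-497 was at 0.06. The other 3 libraries lay between -0.43 and 0.19 for each of the 3 miRNAs. A library of bulk cells does not tell fewer cells of a type from less of an RNA per cell, and this holds for every difference given here.

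How alike the 3 miRNAs were was measured library by library, as the root mean square of the difference between their values after each miRNA was centred on its own mean over the 6 libraries. A value of 0 means that 2 miRNAs move in parallel. This distance was 0.38 between miR-195 and miR-497, 0.39 between miR-195* and miR-497 and 0.44 between miR-195 and miR-195*. The median over the 435 pairs of the table was 0.94, and these pairs took places 19, 23 and 37 from the smallest. The 3 miRNAs were thus closer to each other than most pairs of the table, although the guides with the shared seed and the arms of the shared hairpin were at about the same distance. The median distance to the other 29 miRNAs was 0.71 for miR-195, 0.71 for miR-195* and 0.57 for miR-497, also below 0.94. Part of the closeness was therefore shared with the rest of the table. Some other miRNAs of the table repeat the same value across libraries. In each ethanol-fed library miR-741-3p was at 0 and miR-455* at -0.06, and miR-741-3p was also at 0 in pair-fed replicates 1 and 2. Among the ethanol-fed libraries miR-3559-3p, miR-190, miR-541, miR-301a* and miR-152* also repeat a value. Of these rows, miR-455* and miR-152* are among the miRNAs with fully separated groups. How far such rows widen the median distance was not tested. Points of a pair share the library and its normalization, so the distances are a description.

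Centring each miRNA within each diet removes the difference of diet means that chose the table. The day 1 libraries, on which the size of that difference rested, still enter these distances. The distance was then 0.25 between miR-195* and miR-497 (place 8 of 435), 0.35 between miR-195 and miR-497 (place 22) and 0.42 between miR-195 and miR-195* (place 47), against a median of 0.90 over all pairs. The closest of the 3 pairs by this measure joined the star strand of one precursor with the guide of the other. Without both day 1 libraries the distances within diets were 0.29, 0.25 and 0.34 in the same order. The closest pair was then miR-195 and miR-497. With all 6 libraries kept, the median distance within diets to the other 29 miRNAs was 0.67 for miR-195, 0.61 for miR-195* and 0.55 for miR-497.

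The nearest miRNA of the table was from another locus for each of the 3. For miR-195 the nearest were miR-152 at a distance of 0.21, miR-23b at 0.25 and miR-10a-5p at 0.30, with miR-497 in place 5 and miR-195* in place 8 of 29. Its nearest, miR-152, was at -0.47, -0.70 and 0.04 in ethanol-fed and at 2.13, -0.04 and 0.72 in pair-fed replicates 1, 2 and 3. Those values repeat the order of the libraries of miR-195 except between ethanol-fed replicates 1 and 2.

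For miR-195* the nearest was miR-126* at 0.20, followed by miR-126 at 0.27 and then by miR-497. miR-126 is abundant in endothelial cells, and miR-126* is the other product of its hairpin. miR-126* was at -1.98, 0.04 and -0.04 in ethanol-fed and at 2.59, -0.15 and 1.38 in pair-fed replicates 1, 2 and 3. Pair-fed replicate 3 was the second highest library for miR-126* and for each of the 3 miRNAs of the cluster, as it was for 13 of the 30 miRNAs (43.3%). For miR-497 the nearest were miR-10a-5p at 0.27, miR-195 and then miR-23b at 0.38.

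Centred within each diet, the nearest were miR-23b (0.18), miR-152 and miR-126 to miR-195, miR-126* (0.19), miR-497 and miR-126 to miR-195*, and miR-126, miR-195* and miR-10a-5p to miR-497. For miR-497 the distances to miR-126 and miR-195* were both 0.25.

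**Figure D3:**
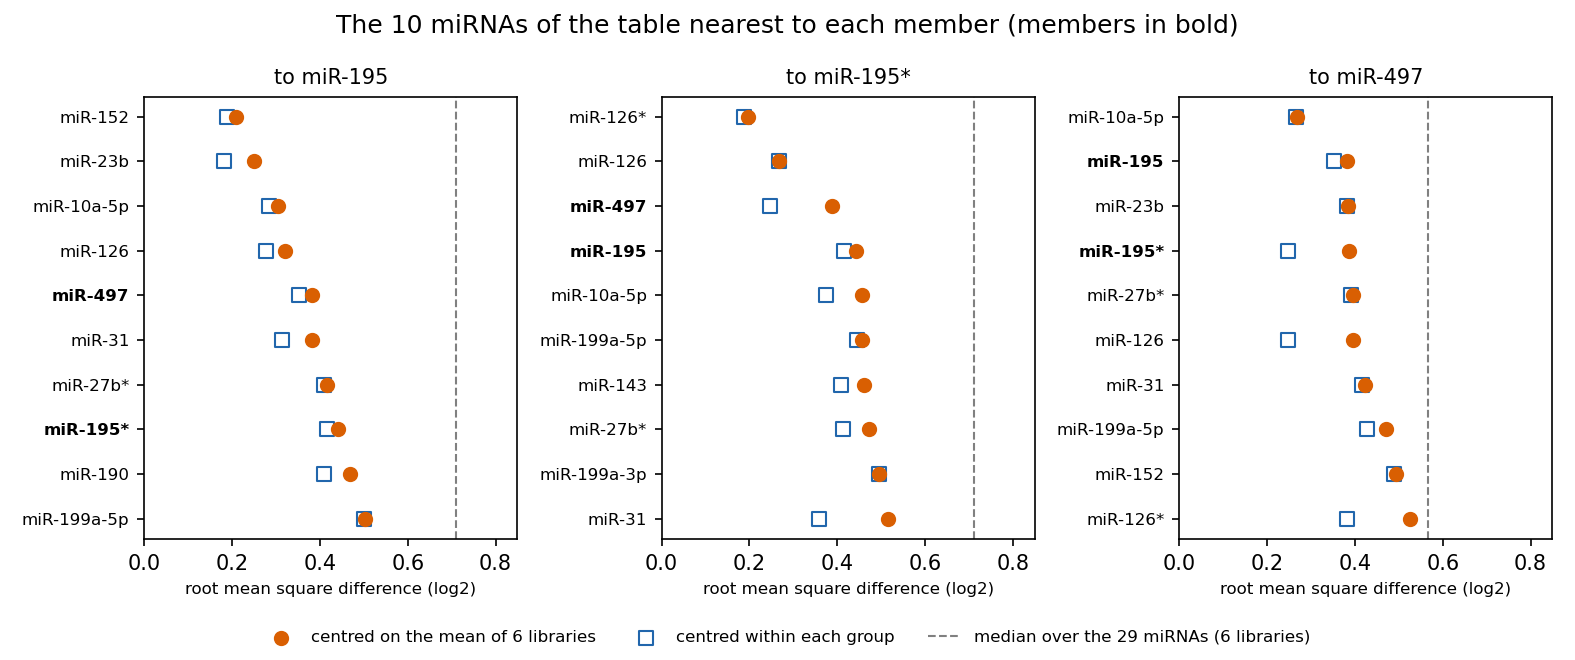
Root mean square difference (log2) from miR-195, miR-195* and miR-497 to the 10 nearest of the other 29 miRNAs of the table, over 6 libraries with each miRNA centred on its mean (filled points) or centred within each diet (open squares), with the median over the 29 miRNAs as a dashed line. The nearest points are miR-152, miR-126* and miR-10a-5p, at 0.21, 0.20 and 0.27, and the other products of the cluster (bold names) lie at 0.38 to 0.44.

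The arms of the mir-195 hairpin were compared by the difference miR-195 minus miR-195* in each library. As each arm is set to its own median, only the change of this difference between libraries can be read, not which arm is the more abundant. It was 0.71, -0.62 and 0.21 in ethanol-fed replicates 1, 2 and 3, against -0.12, 0.01 and -0.49 in pair-fed replicates 1, 2 and 3. The mean was 0.10 ± 0.67 (SD, n = 3) in ethanol-fed and -0.20 ± 0.26 (SD, n = 3) in pair-fed libraries, with overlapping groups, and the difference between them of 0.30 was smaller than the spread of the ethanol-fed libraries.

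There were 6 precursors with both products in the table. The distance between the arms of mir-195, 0.44, took place 3 among them, above those of mir-199a (0.36) and mir-126 (0.37) and below those of mir-143 (0.65), mir-152 (0.85) and mir-455 (1.11). Some star strands repeat a value, as miR-455* was at -0.06 in each ethanol-fed library and miR-152* at -1.52 in ethanol-fed replicates 2 and 3. How far this widens the distances of mir-152 and mir-455 was not tested. In ethanol-fed replicate 1 the difference of the mir-195 arms was at its highest, as it was for miR-199a-5p minus miR-199a-3p (0.95) and for miR-126 minus miR-126* (0.41). This did not hold for the other 3 precursors. There the difference in ethanol-fed replicate 1 was 0.20 for mir-143 and 0.14 for mir-152, both exceeded in other libraries, and -2.70 for mir-455, its lowest.

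**Figure D4:**
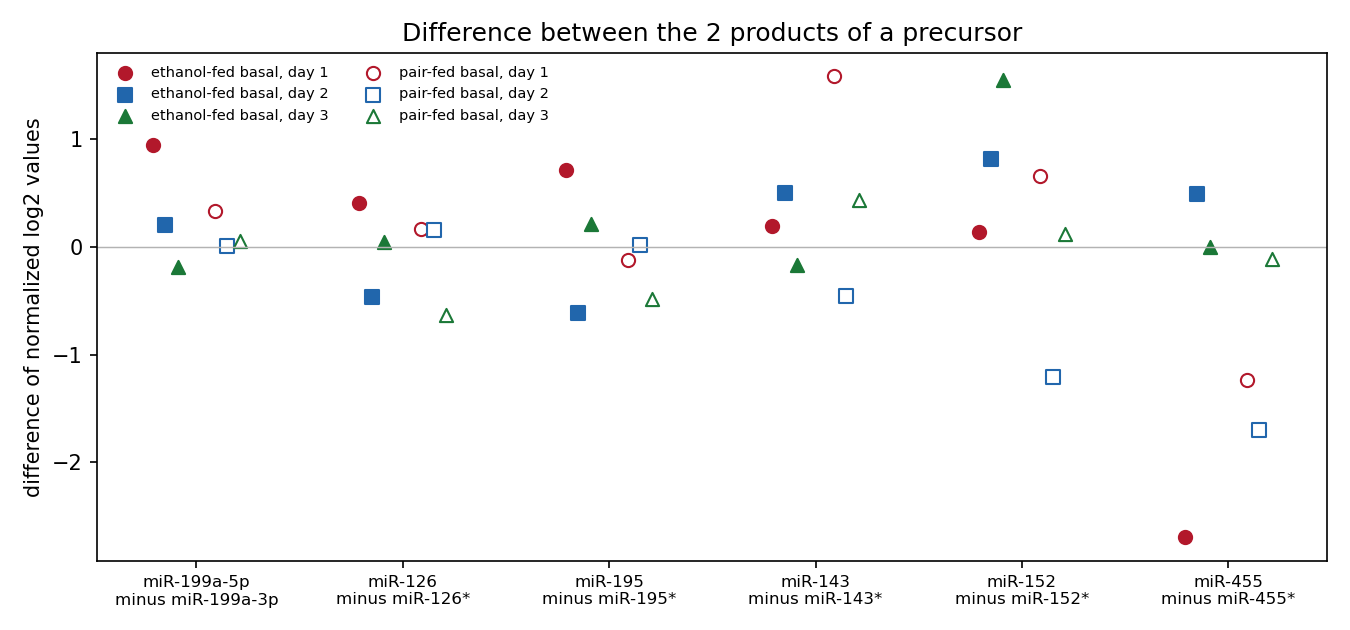
Difference of the normalized log2 values of the products of each of 6 precursors, in ethanol-fed basal (filled, left) and pair-fed basal (open, right) libraries, with colour and shape giving the day. For mir-195 the points run from -0.62 to 0.71, a narrower range than for mir-143, mir-152 and mir-455 and a wider one than for mir-126 and mir-199a.

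The cluster was also set beside the other neighbouring precursors of the table. All 30 miRNAs matched a precursor in RefSeq, and the 24 precursors held 5 pairs within 10 kb of each other in GRCr8. For mir-195 and mir-497 the distances of 0.38 and 0.39 were like those of miR-23b and miR-27b* (0.40) and of miR-145 with miR-143 (0.43) and miR-143* (0.46). The other neighbours were farther apart, at 0.86 for miR-201 and miR-3585-3p, and at 1.12 and 1.25 for miR-214 with miR-199a-5p and miR-199a-3p.

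The table also holds miRNAs known from other liver cells, and all of them are lower with ethanol feeding by the selection of the table. Of 5 names on a list of endothelial miRNAs, 2 were in the table with 3 products (miR-126, miR-126* and miR-10a-5p). Their mean value was -1.47, -0.17 and -0.07 in ethanol-fed and 2.40, -0.0031 and 0.94 in pair-fed replicates 1, 2 and 3. Of 5 names on a list of hepatic stellate and other mesenchymal miRNAs, 4 were there with 6 products (both arms of miR-143 and miR-199a, and miR-145 and miR-214). Their mean value was -1.97, -0.07 and -0.11 in ethanol-fed and 2.19, -0.10 and 0.0074 in pair-fed replicates 1, 2 and 3.

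The mean of miR-195, miR-195* and miR-497 was -1.29, -0.18 and -0.06 in ethanol-fed and 2.31, -0.04 and 0.72 in pair-fed replicates 1, 2 and 3. The median of the other 27 miRNAs was -0.77, -0.15 and -0.07 in ethanol-fed and 1.88, 0.05 and 0.27 in pair-fed replicates 1, 2 and 3. The low and high day 1 values of the cluster and of both lists were thus also seen in the rest of the table. All of these miRNAs were selected by these same values, so the shared pattern is a description. In pair-fed replicate 3 the mesenchymal mean was set by miR-214, at -1.49, as the other 5 products lay between 0.11 and 0.54 and the median of the list was 0.24. miR-497, at 0.33, was within that range, and miR-195 and miR-195* were above it. The median difference with ethanol feeding was -1.83 for the endothelial and -1.49 for the mesenchymal products, beside -1.51 for the cluster and -1.30 for all 30. No summed level can be given, since each miRNA is set to its own median. None of the names on the lists of hepatocyte (3 names), erythroid (3) or leukocyte and macrophage (5) miRNAs was in the table, so the labelled cell type could not be checked by them. The part of other cells in the values of the cluster was not tested.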

How the data were processed

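Small RNA libraries of basal Kupffer cells from ethanol-fed and pair-fed rats (3 each) were used, with groups and days taken from the sample labels. The deposited values are log2 levels normalized by the authors and set to a median of 0 for each miRNA, in a table cut at a fold change of 2. The sources used here do not say how they were normalized. HTSeq, DESeq and rn4 appear in the submitters' processing notes. Columns with the authors' fold changes and p-values were not used. An alignment report gave the reads per library.

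Group means, SD, differences with standard errors, differences within days and distances between miRNAs were computed in Python 3.11.15 (numpy 2.4.6, pandas 2.3.3, matplotlib 3.10.9), with no filter or pseudocount, and the steps were tested on simulated data. No test was made, because the miRNAs were selected by the same contrast. The members and lists were chosen with earlier results of these data known. Besides the 3 miRNAs, the text names the miR-15/16 family, for each member the 3 nearest miRNAs, all precursors with both products in the table and all neighbours within 10 kb. The labels number libraries by day, which was taken to pair them. Deviations of same-day libraries from their group means correlated across the 30 miRNAs at -0.28, -0.39 and -0.35 on days 1, 2 and 3. A correlation across miRNAs leaves out any shift that all miRNAs of a library share. The miRNAs were also selected by the difference between the diets and set to their own medians. These correlations therefore cannot tell if same-day libraries form a pair. Alternatives left out libraries or days, used the day as a block, medians, a linear scale, a rescaling by the table, other fold thresholds and another distance.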

Additional observations from a re-analysis of the deposited data

How the results depend on the processing

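When single libraries or both libraries of a day were left out, the difference ranged from -2.03 to -0.61 for miR-195, from -2.75 to -0.64 for miR-195* and from -1.86 to -0.13 for miR-497, with the smallest of each without day 1. The number of the 3 at least 2-fold lower ranged from 0 to 3. It was 0 without day 1 (20% of the table) and 1 without pair-fed replicate 1 (33.3%). It was 2 without ethanol-fed replicate 1, for which no share of the table was computed. With all libraries, 1 of them was 3-fold lower (30% of the table) and 0 of them 4-fold lower (6.67%). The number with separated groups, 0, ranged from 0 to 3, and was 3 without pair-fed replicate 2 (53.3% of the table). It was also 3 without both day 2 libraries and 1 without both day 3 libraries. No share of the table was computed for those settings. With the day as a replicate block the differences were again -1.51, -1.81 and -1.21, with standard errors of 0.90, 1.23 and 1.09. Relative to the other miRNAs of each library, the difference was -0.44 for miR-195 and -0.15 for miR-497. When libraries were left out, the distances between the 3 ranged from 0.19 to 0.48 with each miRNA centred on its mean over the libraries kept. Centred within diets they ranged from 0.087 to 0.47. The difference stayed negative in every alternative for each of the 3 miRNAs, which were selected as lower in these same libraries. On day 2 alone it was 0.07 for miR-195* and 0.08 for miR-497. The difference of the mir-195 arms between the diets ranged from -0.0037 to 0.77 with libraries left out. With medians in place of means the difference of miR-497 was -0.34. Depth per miRNA is unknown and sets a limit that could not be measured.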

Other observations

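The alignment report gives the share of alignments on each chromosome. Chromosome 10, which carries both hairpins in GRCr8, held 26.35%, 25.43% and 25.61% of alignments in ethanol-fed basal replicates 1, 2 and 3, against 26.04%, 24.79% and 24.2% in pair-fed basal replicates 1, 2 and 3. The share covers all RNAs aligned to that chromosome in the older build rn4, and was the highest in ethanol-fed replicate 1 and the lowest in pair-fed replicate 3. Reads too short to align made up 22.6%, 8.81% and 7.32% of ethanol-fed and 24.8%, 11.7% and 25.9% of pair-fed libraries, in the same order, and their relation to the values of the 3 miRNAs was not tested.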
